A study of Homo sapiens with 8 samples.

Results

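The glycan-building transferases are enzymes, most of them in the Golgi, that add sugars to proteins or to growing glycans. They were chosen by gene symbol, as every row of the count table whose symbol belongs to the families B3GALT, B3GALNT, B3GNT, B4GALT, B4GALNT, GALNT, GCNT, FUT, MGAT, ST3GAL, ST6GAL, ST6GALNAC and ST8SIA. No measured value enters that rule, but the families were chosen with earlier results of these data known. The rule found 90 of 26475 genes, of which 88 had a count in at least 1 library and 61 had enough counts to test. All 8 samples were BT474, an established human breast cancer line with amplified ERBB2, and their RNA was sequenced. The labels' "genotype" tag divides them into 4 NPY1R high and 4 NPY1R low samples, and NPY1R encodes a G protein-coupled receptor for neuropeptide Y. How the high and low cells were separated is not given in the sources used here. No drug is named for any of the 8 libraries, although the series title places them in a study of persistence under lapatinib, an inhibitor of EGFR and ERBB2. All values come from 1 cell line, and the labels do not say whether the replicates were separate cultures, so p-values measure the spread between these samples, which may be technical.

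Glycans are built stepwise, each enzyme using the product of the one before as its acceptor and a nucleotide sugar as its donor. GALNT enzymes start mucin-type O-glycans on serine and threonine, GCNT enzymes branch them, MGAT enzymes set the number of N-glycan antennae, and galactosyl- and N-acetylglucosaminyltransferases extend the arms. Fucosyltransferases and sialyltransferases then cap the ends, where they often compete for the same acceptor. Terminal glycans made this way carry blood group and Lewis antigens and are often altered in epithelial tumours.

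The 5 windows below show the DNA before the RefSeq transcription starts of the 4 called members with the smallest adjusted p among those in the promoter table used here (RefSeq, GRCh38.p14, all on the plus strand). B4GALNT3, with a larger change than GALNT7, FUT9 or GALNT12, had no entry in that table. Neither had MGAT4A, with a smaller adjusted p than GALNT12. B4GALNT2 has 2 starts in that table, 309 bases apart, with windows at chr17:49132210-49132459 and chr17:49132519-49132768. Both lie inside the annotated gene, whose 5′ end is farther upstream at position 49120344. The second window lies inside the transcript that begins at the first start. The other windows are chr4:173168561-173168752 for GALNT7, chr6:96015724-96015973 for FUT9 and chr9:98807420-98807669 for GALNT12. Each holds the 250 bases before the start, except that of GALNT7, which is shown for 192 bases and stops where GENCODE release 29 places a first exon. Capitals mark the matches to the searched motifs.
B4GALNT2, first start: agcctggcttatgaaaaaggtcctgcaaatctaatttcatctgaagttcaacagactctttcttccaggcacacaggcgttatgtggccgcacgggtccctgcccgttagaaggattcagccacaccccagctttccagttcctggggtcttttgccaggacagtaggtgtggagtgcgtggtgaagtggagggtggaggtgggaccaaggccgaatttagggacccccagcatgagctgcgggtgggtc
B4GALNT2, second start: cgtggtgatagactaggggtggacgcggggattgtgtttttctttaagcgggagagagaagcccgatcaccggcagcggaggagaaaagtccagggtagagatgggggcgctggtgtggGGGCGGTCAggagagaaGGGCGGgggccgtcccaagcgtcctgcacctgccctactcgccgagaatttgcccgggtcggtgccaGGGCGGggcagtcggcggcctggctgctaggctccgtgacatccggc
GALNT7: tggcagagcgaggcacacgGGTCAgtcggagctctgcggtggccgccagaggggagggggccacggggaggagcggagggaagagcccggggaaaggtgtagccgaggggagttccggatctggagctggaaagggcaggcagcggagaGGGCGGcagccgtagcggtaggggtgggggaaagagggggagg
FUT9: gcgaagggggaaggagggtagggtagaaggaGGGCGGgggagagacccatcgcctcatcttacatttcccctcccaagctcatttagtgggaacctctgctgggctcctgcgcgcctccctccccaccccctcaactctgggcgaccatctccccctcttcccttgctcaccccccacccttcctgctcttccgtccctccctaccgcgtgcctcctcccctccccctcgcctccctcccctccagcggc
GALNT12: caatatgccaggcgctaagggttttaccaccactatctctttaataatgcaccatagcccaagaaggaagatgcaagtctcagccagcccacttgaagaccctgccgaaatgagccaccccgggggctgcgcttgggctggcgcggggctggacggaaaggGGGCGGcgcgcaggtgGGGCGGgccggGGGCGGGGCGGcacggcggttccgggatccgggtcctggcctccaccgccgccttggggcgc

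In the 5 full windows of 250 bases, 5 motifs were searched on both strands, GGGCGG (the GC box bound by SP1-type factors), CCAAT (bound by NF-Y), TATAAA (the TATA box), GGTCA (the estrogen response half-site) and AGAACA (a half-site of progesterone and androgen receptors). GGGCGG occurred 3 times in the second B4GALNT2 window, 4 times in that of GALNT12 and 1 time each in those of GALNT7 and FUT9. Across all 35116 promoter windows in the table, 42.6% held GGGCGG at least 1 time. GGTCA occurred 1 time in the second B4GALNT2 window, where it overlaps a GGGCGG, and 1 time in that of GALNT7, against 32.65% of all windows. No match to CCAAT (32.0% of all windows), TATAAA (10.7%) or AGAACA (12.4%) stood in any of the 5. The first B4GALNT2 window held no match to any of the 5 motifs and 7 CG pairs, while the second held 21 CG pairs, and the median over all windows was 11. A match is a description of the letters and not evidence of binding.

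Total expected counts ranged from 18025648 to 30609791 per library, and members took 0.239% to 0.253% of them in NPY1R high and 0.263% to 0.276% in NPY1R low. NPY1R had 20354, 19571, 28986 and 17256 counts in NPY1R high and 2707, 2709, 2028 and 2639 in NPY1R low. The 10 luminal markers, ERBB2 among them, summed to 8974 to 10271 CPM (counts scaled to library size) in NPY1R high and 7310 to 9538 CPM in NPY1R low. These sums hide changes in both directions, as PGR (2165 against 659.8 CPM), ESR1 and GATA3 were higher in NPY1R high and GRB7, EPCAM and FOXA1 were lower, and their part in the results below was not tested. Markers of other cell types were low in both groups, with basal sums of 4.91 to 8.81 against 4.52 to 7.78 CPM, fibroblast sums of 10.9 to 17.5 against 10.4 to 17.5 CPM, leukocyte sums of 0.936 to 1.23 against 1.10 to 2.07 CPM, and endothelial sums of 9.22 to 15.5 against 13.5 to 18.2 CPM. Most of the basal sum was TP63 (means of 6.36 against 6.28 CPM) and most of the fibroblast sum was COL1A1 (14.1 against 15.5 CPM). Likewise, CD68 made up most of the leukocyte sum (1.08 against 1.63 CPM) and VWF most of the endothelial sum (11.7 against 16.1 CPM). KRT14, PDGFRB and CD3E had no count in any library. Less RNA per cell and fewer cells that make it cannot be told apart in bulk samples.

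Of the 61 tested members, 15 passed the test (24.6%), against 13.6% of all 14008 genes tested. Because the members were chosen with earlier results known, these shares describe the set and do not test it. Higher in NPY1R high were 6 members (9.84%, background 5.78%), namely B4GALNT3, FUT9, B4GALT6, ST6GAL2, GALNT4 and B4GALT5. Lower were 9 members (14.8%, background 7.81%), namely B4GALNT2, GALNT12, GALNT7, GCNT1, MGAT4A, ST3GAL1, GALNT6, B4GALT4 and FUT11. With other reference libraries for the scaling, 7 to 8 members were called in each direction, and over all genes 869 to 995 were higher and 865 to 892 lower, in place of 810 and 1094. Among the called members, 5 differed by 2-fold or more (8.20% of tested members, background 3.2%), namely B4GALNT3, FUT9 and B4GALT6, which were higher, and B4GALNT2 and GALNT12, which were lower (background for lower genes 1.33%). The median log2 change of the tested members was -0.03, the same as over all genes, whereas the median absolute change was 0.28 against 0.14. The groups did not overlap for 17 tested members (27.9%, background 20.2%), which were the 15 called ones, B3GALNT1 and ST6GAL1. So the called members lay on both sides of zero, and no family had all of its tested members called.

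**Figure D1:**
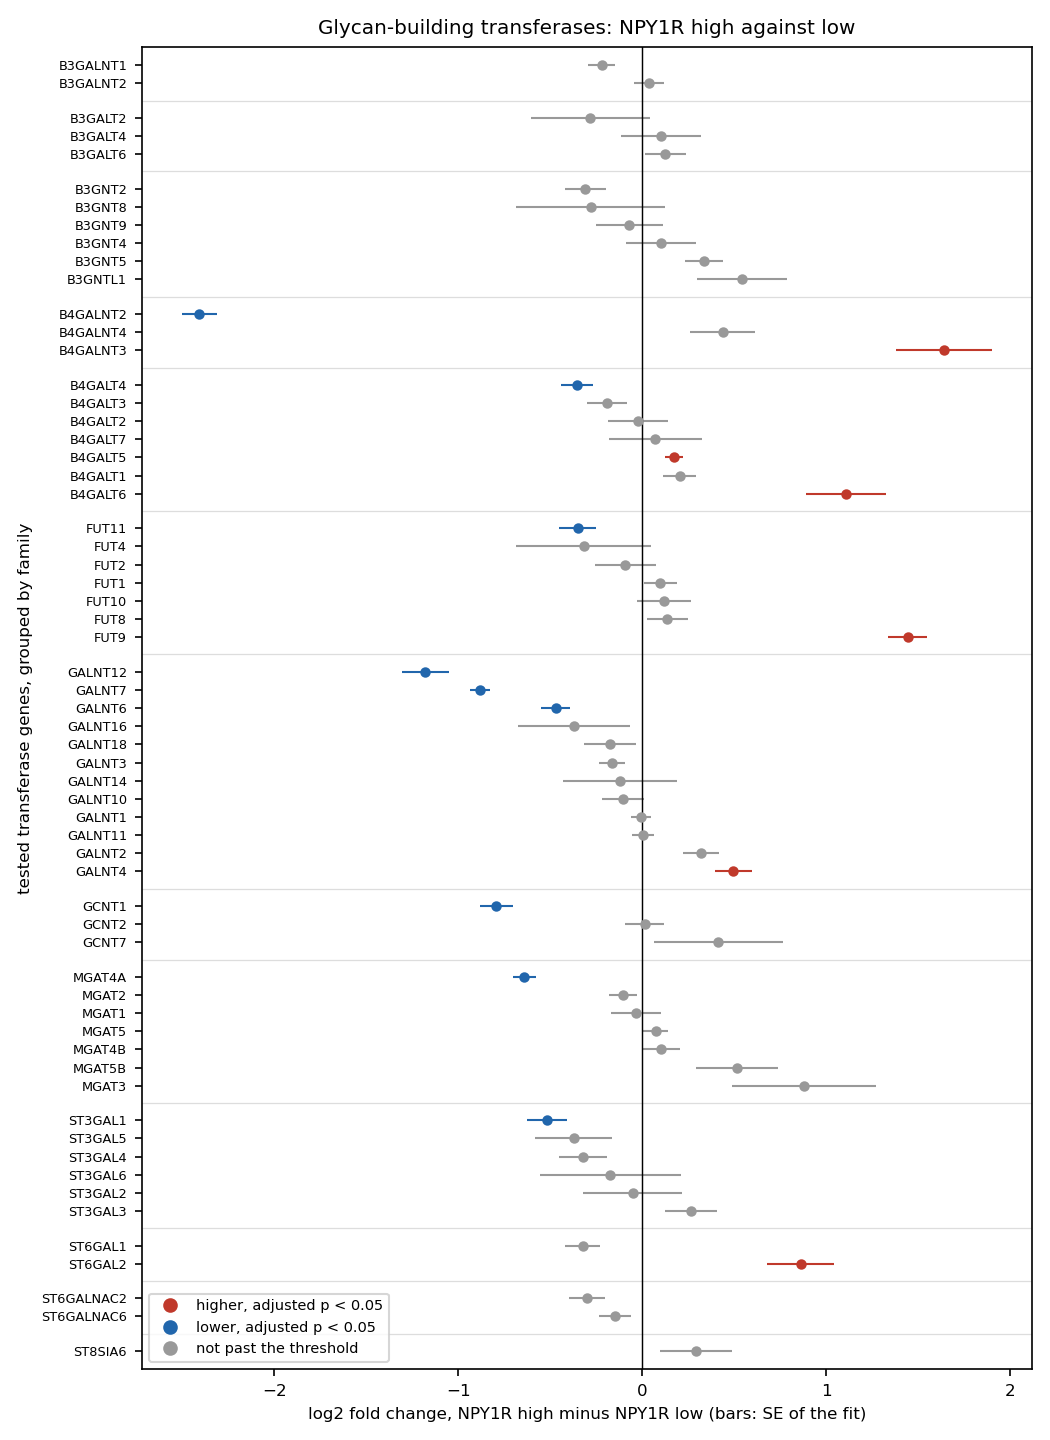
Log2 fold change (NPY1R high minus NPY1R low, horizontal axis) of the 61 tested members, grouped by family, with bars for the standard error of the fit. B4GALNT2 stands alone at -2.41 and B4GALNT3 lies at the other end at 1.64, while the 46 grey members did not pass the threshold.

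The largest change was in B4GALNT2, which adds N-acetylgalactosamine to alpha-2,3-sialylated galactose and so makes the Sda antigen (chr17:49120344-49176840 in the RefSeq annotation of GRCh38.p14). Its level was 11.9, 10.9, 10.8 and 11.7 CPM in NPY1R high replicates 1 to 4 and 60.6, 51.6, 59.99 and 68.0 CPM in NPY1R low replicates 1 to 4. Every NPY1R low library was far above every NPY1R high library. The means were 11.3 ± 0.532 and 60.1 ± 6.71 CPM (SD, n = 4), a 5.30-fold difference, and the gene fell by 2.41 on the log2 scale (SE 0.09, adjusted p = 8.08e-07 by edgeR's quasi-likelihood test with Benjamini-Hochberg adjustment). The difference was -2.29 between replicates 1 and 2 of the groups and -2.49 between replicates 3 and 4.

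B4GALNT3, which with B4GALNT4 makes LacdiNAc by adding N-acetylgalactosamine to N-acetylglucosamine, went the opposite way. It read 6.42, 4.80, 6.33 and 7.65 CPM in NPY1R high and 2.62, 2.63, 1.56 and 1.18 CPM in NPY1R low, with no overlap. Means of 6.30 ± 1.17 and 1.99 ± 0.741 CPM (SD, n = 4) gave a rise of 1.64 on the log2 scale (SE 0.26, adjusted p = 0.00222). The log2 difference was 1.05 in replicates 1 and 2 and 2.28 in replicates 3 and 4, so its size rests on which libraries are used while its sign does not. B4GALNT4 did not pass, at 11.8 ± 2.47 against 8.66 ± 1.42 CPM (log2 0.44, adjusted p = 0.143). B4GALNT1, which makes the gangliosides GM2 and GD2, had 8 counts in all 8 libraries together and was not tested.

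Per kilobase of transcript, the scale used here for shares within a family, B4GALNT2 made up 70.5% of the summed level of the 3 tested B4GALNT genes in NPY1R low (63.8% to 78.5% over libraries). In NPY1R high it made up 21.9% (19.2% to 25.9%), and B4GALNT4 led with 57.2%. The share of B4GALNT3 was 20.8% in NPY1R high and 4.00% in NPY1R low. Thus the gene with the highest level per kilobase in this family differed between the groups in every library.

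**Figure D2:**
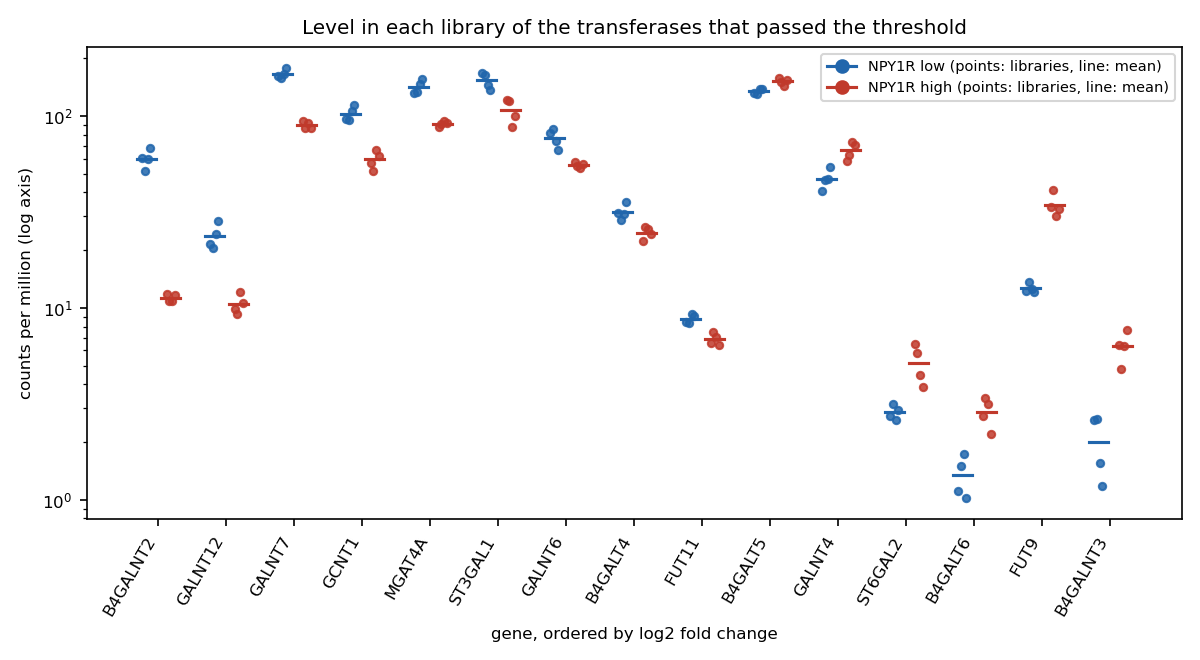
Level of the 15 called members in each library (CPM on a log axis), with genes ordered by log2 fold change, points for the 4 libraries of each group and a line for their mean. The points of the groups do not overlap for any of the 15, and the gap is widest for B4GALNT2 (11.3 against 60.1 CPM).

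GALNT enzymes attach the first N-acetylgalactosamine of mucin-type O-glycans. Of 19 listed genes, 12 were tested, 3 were lower (GALNT7, GALNT12 and GALNT6) and 1 was higher (GALNT4) in NPY1R high. The background over all genes tested was 7.81% lower and 5.78% higher. GALNT7, which prefers peptides that already carry an O-glycan, read 94.2, 86.8, 91.9 and 87.2 CPM in NPY1R high. In NPY1R low it read 161, 158, 167 and 177 CPM, so the groups were well separated and each was tight. It fell by 0.88 on the log2 scale (SE 0.05, adjusted p = 8.64e-06), a 1.84-fold difference that held with each library left out.

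GALNT12, a further initiating enzyme, read 9.89, 9.30, 12.2 and 10.6 CPM in NPY1R high against 21.6, 20.5, 24.3 and 28.5 CPM in NPY1R low. The highest NPY1R high library stayed well below the lowest NPY1R low library. The gene fell by 1.18 (log2, SE 0.13, adjusted p = 0.000245). GALNT6 was lower by a smaller amount, at 55.6 ± 1.73 against 77.1 ± 8.25 CPM (SD, n = 4, log2 -0.47, adjusted p = 0.00292). SLC4A8, on the opposite strand of that locus, had 66 to 169 counts per library.

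GALNT4, another enzyme with a preference for partly glycosylated peptides, read 58.7, 62.9, 73.2 and 70.6 CPM in NPY1R high and 40.7, 46.4, 46.8 and 54.6 CPM in NPY1R low. All NPY1R high libraries were above all NPY1R low ones, and the gene rose by 0.49 (log2, SE 0.10, adjusted p = 0.00911). Its expected counts were fractional in all 8 libraries. It overlaps POC1B on the same strand, and a read-through gene, POC1B-GALNT4, is counted apart. Summed with that read-through the change was 0.43 (adjusted p = 0.0205). The division of reads between these genes is an estimate of the counting tool.

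The GALNT genes with the highest levels did not pass. GALNT1 stood at 234.6 ± 7.70 against 235.8 ± 13.8 CPM (log2 -0.01, adjusted p = 0.957, a sign that turned under other scalings). GALNT3 stood at 223 ± 16.3 against 249.7 ± 16.8 CPM (log2 -0.16, adjusted p = 0.160). GALNT2 missed the threshold at 29.2 ± 2.81 against 23.3 ± 2.06 CPM (log2 0.32, adjusted p = 0.0547) and was called higher in 21 of 31 alternative settings. Among these were all 7 other scaling references (adjusted p 0.0300 to 0.0328). Per kilobase, GALNT1 and GALNT3 together led the family in both groups, with 27.9% and 26.4% of its level in NPY1R high and 24.6% and 25.9% in NPY1R low. GALNT7 took 9.58% in NPY1R high and 15.4% in NPY1R low.

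After the first sugar, C1GALT1 adds galactose to make the core 1 structure, on which GCNT1 builds the core 2 branch and ST3GAL1 adds an alpha-2,3 sialic acid that blocks it. GCNT1 read 57.1, 51.8, 66.9 and 62.1 CPM in NPY1R high and 96.6, 95.2, 107 and 114 CPM in NPY1R low. With the groups fully apart, it fell by 0.79 (log2, SE 0.09, adjusted p = 0.000302). PRUNE2, on the opposite strand of the same locus, had 305 to 591 counts per library, and whether the counting used strand, which bears on GALNT6 as well, is not given in the sources used here. ST3GAL1 read 122, 120, 87.8 and 101 CPM in NPY1R high and 168, 164, 146 and 137 CPM in NPY1R low.

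Both groups of ST3GAL1 were lower in replicates 3 and 4 than in 1 and 2, yet they did not overlap, and the gene fell by 0.52 (log2, SE 0.11, adjusted p = 0.0115). Without NPY1R high replicate 4 the adjusted p was 0.0550. C1GALT1 itself rose, from 37.3 ± 1.10 to 46.8 ± 1.41 CPM (SD, n = 4, log2 0.33, adjusted p = 0.00365). Of the other GCNT genes, GCNT2 (the I-branching enzyme) read 7.92 ± 0.308 against 7.84 ± 0.766 CPM, GCNT7 did not pass either, GCNT4 was too low to test and GCNT3 had no count.

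The MGAT enzymes open the antennae of N-glycans, and 1 of 7 tested genes passed, a share near the background of 13.6%. MGAT4A, which adds the beta-1,4 branch on the alpha-1,3 arm, read 87.8, 91.4, 94.4 and 92.1 CPM in NPY1R high against 132, 134, 147 and 157 CPM in NPY1R low. No library of the first group came near the second, and the gene fell by 0.64 (log2, SE 0.06, adjusted p = 0.000148). MGAT4B, which catalyses the same step, stood at 78.1 ± 4.08 against 72.7 ± 11.3 CPM (log2 0.10, adjusted p = 0.616). Per kilobase MGAT4B had the higher level in both groups, with 40.9% of the family in NPY1R high and 35.7% in NPY1R low, against 17.2% and 25.1% for MGAT4A.

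The remaining MGAT genes did not pass. MGAT5, which makes the beta-1,6 branch, was at 86.8 ± 8.22 against 82.5 ± 1.35 CPM (log2 0.07, adjusted p = 0.592). MGAT3, which adds the bisecting N-acetylglucosamine, read 1.20, 1.49, 3.40 and 3.52 CPM in NPY1R high and 1.21, 0.771, 1.69 and 1.53 CPM in NPY1R low. Its replicates 3 and 4 were higher than 1 and 2 in both groups, and the adjusted p was 0.189 (log2 0.88, SE 0.39). With a term for that division of the replicates it was 0.0221. MGAT3 was called in 3 of 31 alternatives and stayed uncalled in 28 (adjusted p up to 0.406).

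**Figure D3:**
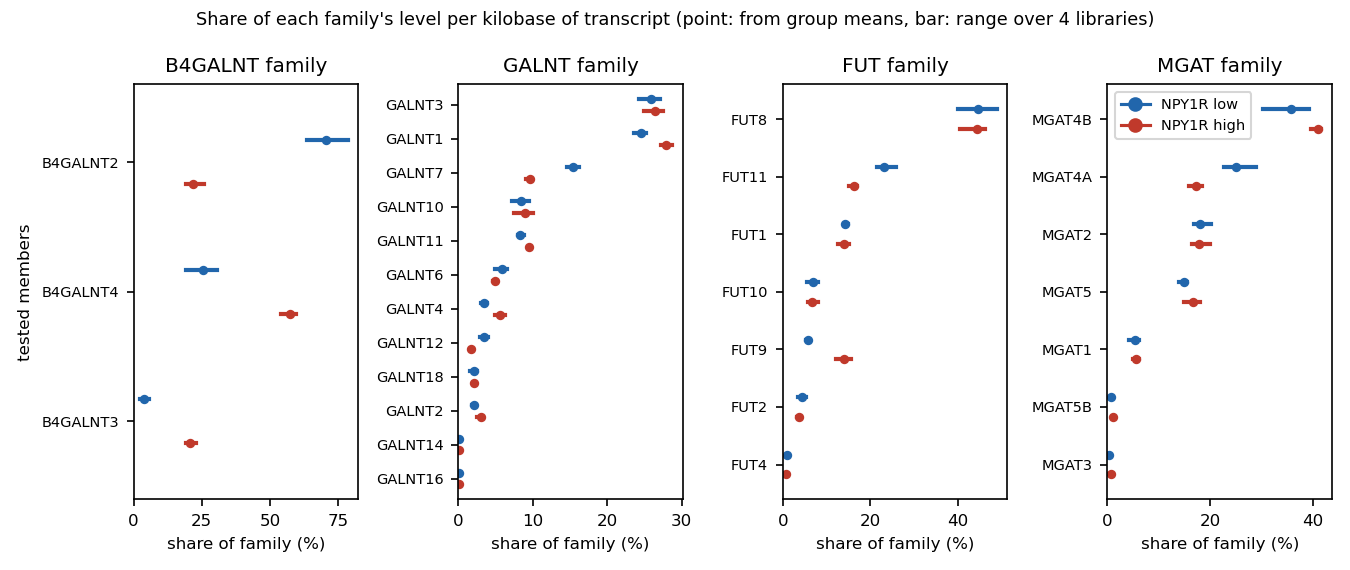
Share of the summed level per kilobase of each family that each tested member took (horizontal axis, percent), for 4 families, with points from group means and bars from the lowest to the highest of 4 libraries. B4GALNT2 moves from 70.5% in NPY1R low to 21.9% in NPY1R high, and FUT9 from 5.66% to 13.9%, while FUT8 lies at 44.7% and 44.5%.

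Galactosyltransferases and N-acetylglucosaminyltransferases of the B4GALT and B3GNT families extend the chains. All 7 B4GALT genes were tested, with 2 higher and 1 lower (background 5.78% higher and 7.81% lower). B4GALT6, a lactosylceramide synthase, read 2.75, 3.38, 3.15 and 2.20 CPM in NPY1R high and 1.11, 1.51, 1.74 and 1.02 CPM in NPY1R low. It was low in all libraries but separated, and rose by 1.11 (log2, SE 0.22, adjusted p = 0.00741). B4GALT5, the more highly expressed lactosylceramide synthase, stood at 151.8 ± 5.79 against 134.9 ± 4.07 CPM (log2 0.17, adjusted p = 0.0451). B4GALT4 stood at 24.7 ± 1.72 against 31.6 ± 2.92 CPM (log2 -0.35, adjusted p = 0.0238).

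These last calls were near the threshold. That of B4GALT5 was lost in 11 of 31 alternatives (adjusted p up to 0.141, and 0.0984 with the replicate block), among them the fits without NPY1R high replicate 1, 2 or 4 or NPY1R low replicate 1, 2 or 3. That of B4GALT4 was lost in 11 as well (adjusted p up to 0.111), among them the fits without replicate 1, 3 or 4 of either group. B4GALT1, the main galactosyltransferase of N-acetyllactosamine, did not pass, at 57.9 ± 5.62 against 50.2 ± 4.85 CPM (adjusted p = 0.189). Among 6 tested B3GNT genes none was called (background 13.6%), and 0 to 1 were called with other scaling references or without 1 library. B3GNT2, a polylactosamine synthase, was at 65.6 ± 8.94 against 81.3 ± 10.1 CPM (log2 -0.31, adjusted p = 0.108, and 0.0209 with the replicate block). It was called in 5 of 31 alternatives and stayed uncalled in 26 (adjusted p up to 0.257). B3GNT5, which starts lacto-series glycolipids, was at 65.9 ± 5.70 against 52.2 ± 7.16 CPM (log2 0.34, adjusted p = 0.0571).

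None of 3 tested B3GALT genes and neither of the B3GALNT genes passed (background 13.6%). B3GALT6, which works on the proteoglycan linker, was at 22.2 ± 2.35 against 20.4 ± 2.41 CPM (adjusted p = 0.552). B3GALNT1, the globoside synthase, was at 134.1 ± 13.4 against 156.3 ± 6.76 CPM (log2 -0.22, adjusted p = 0.0847, and 0.0459 with the term for replicates 1 and 2 against 3 and 4), with no overlap between the groups. It was called in 4 of 31 alternatives and stayed uncalled in 27 (adjusted p up to 0.260). B3GALNT2, which acts on O-mannose glycans of dystroglycan, was at 133.1 ± 11.8 against 129.9 ± 11.5 CPM (adjusted p = 0.848).

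Of 11 fucosyltransferase genes, 7 were tested, 1 was higher and 1 lower (background 5.78% higher and 7.81% lower). FUT9 makes the Lewis x structure by adding an alpha-1,3 fucose to N-acetyllactosamine. It read 33.7, 41.1, 30.0 and 32.8 CPM in NPY1R high and 12.2, 13.7, 12.5 and 12.1 CPM in NPY1R low. The NPY1R low libraries lay close together and all NPY1R high libraries were far above them. FUT9 rose by 1.44 on the log2 scale (SE 0.11, adjusted p = 2.24e-05), a 2.72-fold difference (chr6:96015974-96215612). Its share of the family level per kilobase was 13.9% in NPY1R high and 5.66% in NPY1R low.

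FUT8, the core fucosyltransferase of N-glycans and the family's highest gene, was at 44.4 ± 4.96 against 40.4 ± 5.31 CPM (log2 0.14, adjusted p = 0.511). FUT11 was at 6.88 ± 0.508 against 8.78 ± 0.421 CPM (log2 -0.35, adjusted p = 0.0472). This call was lost in 24 of 31 alternatives (adjusted p up to 0.188), including all 8 fits without 1 library. It was also lost with all 7 other scaling references (adjusted p 0.0777 to 0.0837). FUT1 and FUT2, which make the H antigen, did not pass (adjusted p = 0.565 and 0.801). FUT4, another Lewis x enzyme, was at most 1.18 CPM in every library and did not pass (adjusted p = 0.665). FUT3, the Lewis enzyme, was too low to test, with 0, 1, 2 and 0 counts in NPY1R high and 6, 8.11, 14 and 16 in NPY1R low. These counts did not overlap, but no fold is given at such depth.

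Among sialyltransferases, 11 genes were tested, ST3GAL1 (above) was lower and ST6GAL2 was higher (background 7.81% lower and 5.78% higher). ST6GAL2, an alpha-2,6-sialyltransferase with a preference for small oligosaccharides, read 6.49, 5.84, 4.49 and 3.85 CPM in NPY1R high and 2.72, 3.15, 2.61 and 2.95 CPM in NPY1R low. All 4 NPY1R high libraries were above the NPY1R low ones, and the gene rose by 0.86 (log2, SE 0.18, adjusted p = 0.0105). ST6GAL1, the main alpha-2,6-sialyltransferase of N-glycans, read 37.4, 38.3, 35.3 and 39.6 CPM in NPY1R high and 44.7, 40.3, 47.8 and 55.7 CPM in NPY1R low. Its groups did not overlap either, but the difference of -0.32 missed the threshold (log2, SE 0.10, adjusted p = 0.0523). With the replicate block its adjusted p was 0.0481. ST6GAL1 was called in 6 of 31 alternatives and stayed uncalled in 25 (adjusted p up to 0.192).

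ST3GAL4, which sialylates N-acetyllactosamine, was at 14.7 ± 1.12 against 18.3 ± 3.21 CPM (log2 -0.32, adjusted p = 0.152, and 0.0318 with the term for the replicate division). It was called in 4 of 31 alternatives and stayed uncalled in 27 (adjusted p up to 0.394). ST6GALNAC2, a sialyltransferase of O-glycans, was at 38.9 ± 3.83 against 47.8 ± 5.41 CPM (log2 -0.30, adjusted p = 0.0788, and 0.0235 with the replicate block). It was called in 6 of 31 alternatives and stayed uncalled in 25 (adjusted p up to 0.249). ST8SIA6 was the only tested gene of the polysialyl and disialyl family, at 6.29 ± 1.15 against 5.13 ± 1.21 CPM (adjusted p = 0.407). ST8SIA1, the GD3 synthase, had 44 counts and ST6GALNAC1, the sialyl-Tn synthase, had 6 in all libraries together.

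In all, 29 members were not tested. Among them, GALNTL5 and GCNT3 had no count, and a count of 0 allows up to 3 counts in a library. The other 27 had totals of 1 to 53 counts over the 8 libraries, and apart from FUT3, whose counts are given above, they were not compared between the groups.

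Ratios of counts within a library do not depend on the scaling between libraries, and were compared for pairs of enzymes that share an acceptor or a reaction. They were not corrected for transcript length and so do not rank the genes of a pair by level. Nor were they corrected for GC content. That content was 38.8% for MGAT4A and 61.6% for MGAT4B, and 56.3% for B4GALT1 and 49.3% for B4GALT4. Of 10 pairs, 7 had both members tested, and exact two-sided permutation tests of 4 against 4 libraries cannot go below p = 0.0286. The ratio of MGAT4A to MGAT4B counts was 1.06, 1.17, 1.2995 and 1.17 in NPY1R high and 1.65, 1.60, 2.14 and 2.67 in NPY1R low. It did not overlap between the groups and was lower by 0.75 on the log2 scale (difference -0.75, exact p = 0.0286, 0.1 after Benjamini-Hochberg adjustment over 7 pairs). The ratio of B4GALT1 to B4GALT4 counts was higher by 0.56 (log2, exact p = 0.0286, adjusted 0.1), again with no overlap.

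The ratio of ST3GAL1 to GCNT1, which act on the same core 1 acceptor, was 2.13, 2.31, 1.31 and 1.62 in NPY1R high and 1.74, 1.73, 1.36 and 1.21 in NPY1R low. These values overlapped, and the log2 difference was 0.27 (exact p = 0.286, adjusted 0.400). GALNT1 to GALNT2 differed by -0.33 (exact p = 0.0857, adjusted 0.200) and MGAT3 to MGAT5 by 0.71 (exact p = 0.257, adjusted 0.400). ST6GAL1 to ST3GAL4 differed by -0.01 and ST6GAL1 to FUT4 by 0.15 (exact p = 0.943 for both). No ratio passed the threshold after adjustment, and with so few libraries a fully separated pair could pass only if most of the other pairs were fully separated too.

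**Figure D4:**
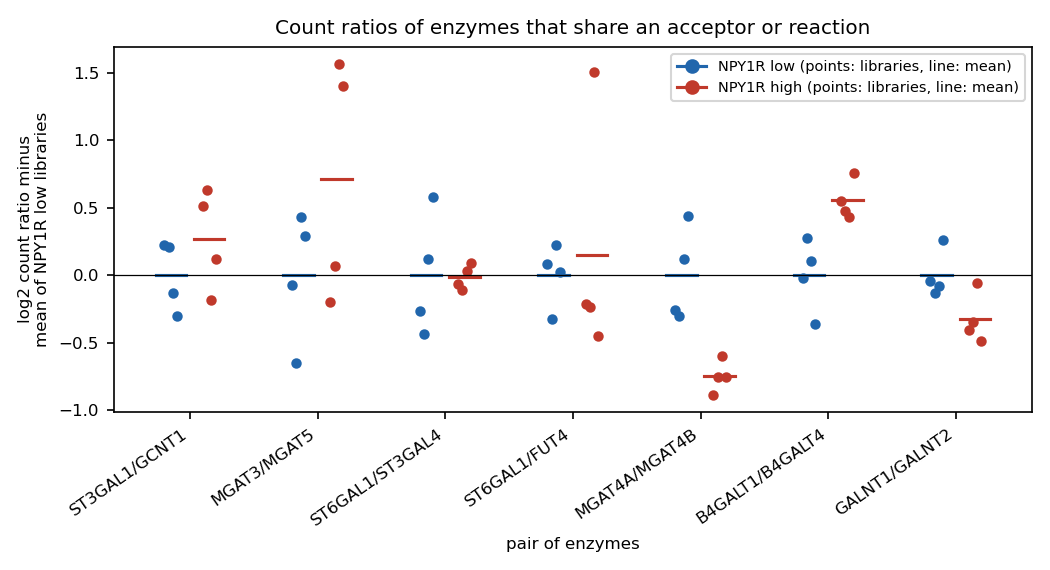
Log2 ratio of the counts of 7 enzyme pairs in each library, minus the mean of the NPY1R low libraries (vertical axis), with points for libraries and lines for group means. MGAT4A/MGAT4B lies below and B4GALT1/B4GALT4 above all NPY1R low libraries, while the other pairs overlap.

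The 7 lists of other glycan genes were chosen by known function and read from the same fit. Among genes that make nucleotide sugars, the donors of all these enzymes, 6 of 26 tested were lower and none higher (background 7.81% lower and 5.78% higher; median log2 change -0.04, against -0.03 over all genes). Without 1 library the count was 2 without NPY1R high replicate 4, 3 without NPY1R low replicate 1 and 4 to 7 in the other fits. GFPT1, the rate-limiting enzyme of the hexosamine pathway, fell from 157.1 ± 13.4 to 105.9 ± 5.07 CPM (SD, n = 4, log2 -0.57, adjusted p = 0.000444). GNPNAT1 (log2 -0.26, adjusted p = 0.0142) and UAP1 (log2 -0.42, adjusted p = 0.00716), both later steps to UDP-N-acetylglucosamine, were lower as well. NANS, which makes sialic acid (log2 -0.38), GMDS, which starts GDP-fucose synthesis (log2 -0.36), and UGP2, which makes UDP-glucose (log2 -0.29), had adjusted p-values of 0.0151, 0.0241 and 0.0322. GNPNAT1 is named to complete the count of 6, outside the rule of the 5 largest changes.

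Transporters that carry nucleotide sugars into the Golgi numbered 9 tested, with 2 lower and none higher (background 7.81% and 5.78%), and 0 to 1 were called in each fit without 1 library. They were SLC35A3, for UDP-N-acetylglucosamine (log2 -0.30, adjusted p = 0.0181), and SLC35A2, for UDP-galactose (log2 -0.24, adjusted p = 0.0260). Of these 8 lower genes of donor supply, UGP2 and SLC35A2 lost their calls in 20 of 31 alternatives each (adjusted p up to 0.163 and 0.145), GMDS in 10 (up to 0.0959), SLC35A3 in 8 (up to 0.105) and NANS in 3 (up to 0.0695). GFPT1 and UAP1 kept theirs in all 31, and GNPNAT1 was not followed through the alternatives.

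The largest change in any list was in N-glycan trimming, where 1 of 9 tested genes passed (background 13.6%). MAN1A1, a Golgi mannosidase that trims oligomannose glycans before MGAT1 acts, rose from 49.4 ± 10.5 to 172.9 ± 45.1 CPM (SD, n = 4, log2 1.81, SE 0.20, adjusted p = 0.000273). MGAT1, which acts on the trimmed product, was at 31.1 ± 3.37 against 31.8 ± 5.90 CPM (adjusted p = 0.921). Of 22 tested initiating and extending enzymes outside the families, 2 were higher and 1 lower, a share at the background of 13.6%. These were C1GALT1 (above), UGT8, the galactosylceramide synthase (log2 0.54, adjusted p = 0.0451, lost in 12 of 31 alternatives with values up to 0.119), and LFNG, the Fringe enzyme that extends O-fucose on Notch, which fell from 58.9 ± 9.29 to 30.0 ± 5.29 CPM (log2 -0.97, adjusted p = 0.00162).

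CHST10, which sulfates the HNK-1 glycan, was the 1 higher gene of 7 tested sulfotransferases (background 5.78%, log2 0.57, adjusted p = 0.00929). Among the mucins that carry O-glycans, 5 of 10 were tested and 2 called (background 13.6%). MUC20 was higher (log2 0.55, adjusted p = 0.0296) and MUC5AC was lower (log2 -1.46, adjusted p = 0.0237), the latter on only 5 to 40 counts per library, and each lost its call in 5 of the 8 fits without 1 library (adjusted p up to 0.0908 and 0.0812).

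**Figure D5:**
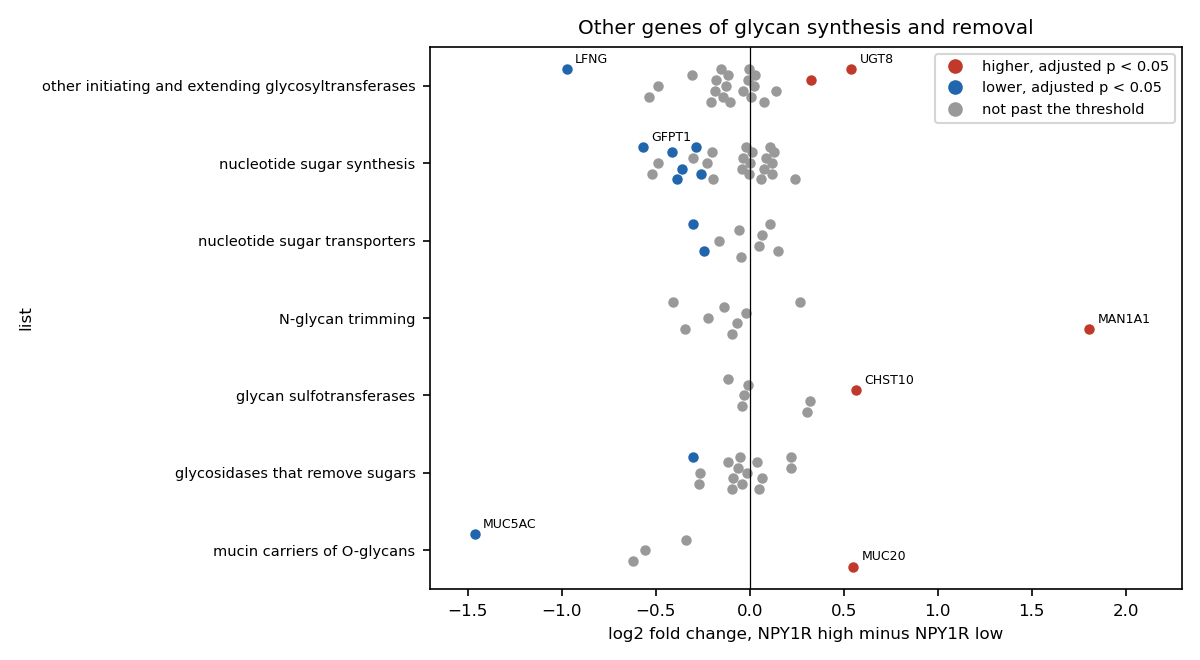
Log2 fold change (NPY1R high minus NPY1R low, horizontal axis) of every tested gene in 7 lists of other glycan genes, 1 point per gene. MAN1A1 lies farthest to the right at 1.81, and all 8 called genes of nucleotide sugar synthesis and transport lie to the left of zero.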

How the data were processed

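RNA of 8 BT474 samples was sequenced from libraries made with 200 ng of RNA and a stranded kit, per the labels' protocols. The authors deposited expected counts for each gene symbol, unscaled. STAR 2.5.2, RSEM 1.3.0 and the build hg38 are named, with no role or order, per the submitters' processing notes. The analysis used the table that holds all samples. Its values equalled those of the single-sample tables (0 differed), and 0 of its columns lacked a labelled sample. In each library 7.97% to 8.76% of values were fractional, so they were rounded.

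Genes were filtered with edgeR's filterByExpr (minimum count 10), which left 14008 genes, and scaled by TMM with NPY1R low replicate 4 as the default reference library. The groups were contrasted in edgeR's quasi-likelihood framework with no covariate, p-values were adjusted by Benjamini-Hochberg over all genes tested, and the threshold was 0.05. The software was edgeR 4.0.16, DESeq2 1.42.0 and limma 3.58.1 under R 4.3.3. CPM were computed from TMM-scaled library sizes. Levels per kilobase divide CPM by the length of the longest coding transcript in GENCODE release 29, which need not be the isoform expressed. Of the 90 members, 64 had a promoter entry in RefSeq, as had 8 of the 15 called members. Count ratios used an offset of 0.5 and exact permutation tests.

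The members and lists were chosen with earlier results of these data known. Named were NPY1R, B4GALNT2, every member past the threshold, members whose groups did not overlap, the member with the highest CPM in each family, members of ratio pairs and, from each list, up to 5 called genes with the largest change. Genes outside this rule were picked with their values in view. The result of 1 list gene is not reported here.

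Within a group, the chi-square statistic between libraries was 5.75 to 62.2 times its degrees of freedom, so no library was a copy of another. The common biological coefficient of variation was 13.6%. The procedure was tested on simulated data that gave every gene this common variation. It recovered 92.5% of log2 changes of 1 and only 31% of log2 changes of 0.5. Counts carry no molecular identifiers, so they are not independent molecules. Same-numbered samples deviated together only weakly (correlations 0.339, 0.157, 0.0907 and 0.0178), so the numbers were not taken to pair them. NPY1R high replicates 1, 2, 3 and 4 deviated most like NPY1R low replicates 2, 2, 4 and 3. Each best match thus lay within replicates 1 and 2 or within replicates 3 and 4. Alternatives covered the scaling and its reference library, the filter, the tool (DESeq2, limma-voom), robust shrinkage, a block on replicate number, a term that sets replicates 3 and 4 apart, a GC offset (94.1% of tested genes had a GC value), each library left out, and a threshold of 0.01. That term with the GC offset, and the sum of GALNT4 with its read-through, were added after seeing the data.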

Additional observations from a re-analysis of the deposited data

Results flagged for a closer look

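In 78 sets of 4 values, 1 per member or ratio and group, the highest or lowest value was set against the other 3, and chance alone would single out about 3.9 of them. Only 2 were singled out. B3GALNT1, the globoside synthase, read 114 CPM in NPY1R high replicate 4 and 139 to 144 CPM in the other 3 libraries of its group. The log2 ratio of ST6GAL1 to FUT4 counts was 7.02 in NPY1R high replicate 3, against 5.06 to 5.31 in the other 3, and FUT4 had 7 counts in that library and 19 to 31 counts in each of the other 7 libraries.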

How the results depend on the processing

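Of the 15 called members, 10 to 15 kept their call and direction in each of 31 alternatives, with the fewest at a threshold of 0.01 (10) and without NPY1R high replicate 4 (11). B4GALNT2, B4GALNT3, B4GALT6, FUT9, GALNT4, GALNT6, GALNT7, GALNT12, GCNT1 and MGAT4A kept theirs in all 31. Members called higher numbered 11 and members called lower 16 with the replicate block plus a GC offset, and the same numbers with the term that sets replicates 3 and 4 apart plus that offset. That term alone gave 15 lower, and the replicate block alone gave 6 higher and 11 lower. Without 1 library, 5 to 8 members were higher and 6 to 9 lower. Over all 14008 genes tested, 1545 were higher with the term plus the offset, 1178 with the block plus the offset and 470 at a threshold of 0.01. The block alone gave 805 higher and 1028 lower over all genes. In the other settings, 1681 were lower with the term, 1769 with the block plus the offset, 2259 with the term plus the offset, and 562 at 0.01. Leaving out 1 library gave 624 to 1068 higher and 625 to 1064 lower over all genes, with 625 lower without NPY1R high replicate 4, 678 without NPY1R low replicate 1 and 710 without NPY1R high replicate 3. The cause of these moves was not tested.

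GALNT1 changed sign around zero, with adjusted p of 0.901 (median of ratios), 0.813 (library totals), 0.718 (upper quartile), 0.809 (no filter), 0.767 (1 CPM in 4 libraries), 0.773 (10 counts in every library) and 0.930 (DESeq2). With other scaling references it was 0.866, 0.883, 0.912, 0.910, 0.795, 0.782 and 0.856, and without 1 library it ranged from 0.509 to 0.998. FUT4 changed sign without NPY1R high replicate 3, within a leave-one-out range of 0.596 to 0.992. Members that did not pass are not shown to be equal between the groups.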

Other observations

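ST3GAL5, which makes the ganglioside GM3 and was chosen after its values were seen, read 15.5, 16.0, 8.54 and 8.98 CPM in NPY1R high and 16.9, 17.3, 14.7 and 14.7 CPM in NPY1R low. NPY1R high replicates 3 and 4 were lower than the other 6 libraries. The log2 difference was -0.12 in replicates 1 and 2 and -0.74 in replicates 3 and 4, and the gene did not pass over all libraries (adjusted p = 0.304). Whether the difference between the pairs of replicates exceeds chance was not tested.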
